A study of Mus musculus with 2 samples.

Results

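The interferon-induced genes studied here are a set of 43 mouse symbols: antiviral effectors (Ifit, Isg and others), Oas genes, RNA sensors, interferon-gamma GTPases, transcription factors and antigen-processing genes. They were taken by symbol from the 32285 features of the deposited single-cell count tables, which held a row for 41 of the 43. Mx1 and Mx2 had no row and were not analysed here. The cells came from the injured tendon area of 12-week-old mice, 14 days after the operation. One library was made from TrkA WT mice, the control, and one from TrkA F592A mice, each from a pool of 3 mice. TrkA is the receptor kinase for nerve growth factor, and the F592A substitution makes that kinase sensitive to a bulky inhibitor whose name, INMPP1, is the title of the F592A sample. The sources used here do not say if WT animals were given it too, so genotype and inhibitor cannot be told apart. With 1 library per genotype there was no replicate and no test: intervals are 95% intervals of counting error (exact Poisson for levels, exact conditional binomial for ratios, exact binomial for shares), and every difference is between these 2 libraries.

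Interferons are secreted proteins through which cells warn each other of infection or damage. Type I interferons (Ifna, Ifnb1) act through Ifnar1 and Ifnar2 on a transcription factor complex that includes Stat2 and Irf9, binds the interferon-stimulated response element (ISRE) and induces the Ifit, Isg15, Oas and Rsad2 genes. Interferon-gamma, made mainly by T and NK cells, acts through Ifngr1 and Ifngr2 on gamma-activated sites (GAS), and is a strong inducer of Irf1, of immunoproteasome genes and of the GTPases of the IRG family (Igtp, Irgm1, Irgm2, Iigp1, Ifi47) and the GBP family (Gbp2, Gbp3, Gbp4, Gbp5, Gbp7). Both interferons induce many of the same genes.

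To show what the gene groups carry at their starts, the 250 bases before the annotated start were read from RefSeq (GRCm38.p6), where 35 of the 43 symbols had an entry. The letters GAAANNGAAA (ISRE core, either strand) and TTCNNNGAA (GAS, its own reverse complement) were searched. The first was in 936 of 27025 genes (3.46%), in 17 of the 35 members, in 6 of 10 Ifit, Isg and Oas genes and in 7 of 8 GTPases. The second was in 2197 genes (8.13%), in 11 of the 35 members, in 3 of 10 Ifit, Isg and Oas genes and in 4 of 8 GTPases (Gbp5, Gbp7, Igtp and Irgm2). Shown here, as examples for the values below, are 3 Ifit and Isg genes that were lower in stromal cells, 3 GTPases of which Gbp5 was higher there and Gbp7 and Igtp were within 1.5-fold, and Irf1, 5′ to 3′ toward the start, with matches in capitals. Ifit1 (chr19:34640639-34640888, plus strand) had ISRE letters starting 104 and 85 bases before the start, Ifit3 (chr19:34583279-34583528, plus strand) at 156 and 122, and Isg15 (chr4:156200819-156201068, minus strand) had 3 overlapping matches at 78, 72 and 66. Gbp7 (chr3:142530086-142530335, plus strand) had GAS letters at 106 and 87 and ISRE letters at 53, and Igtp (chr11:58199306-58199555, plus strand) had GAS letters at 45 and ISRE letters at 34. Gbp5 (chr3:142496684-142496933, plus strand) had GAS letters at 245 and 52 and ISRE letters at 165. Irf1 (chr11:53769764-53770013, plus strand) had GAS letters at 90 and no ISRE letters.
Ifit1: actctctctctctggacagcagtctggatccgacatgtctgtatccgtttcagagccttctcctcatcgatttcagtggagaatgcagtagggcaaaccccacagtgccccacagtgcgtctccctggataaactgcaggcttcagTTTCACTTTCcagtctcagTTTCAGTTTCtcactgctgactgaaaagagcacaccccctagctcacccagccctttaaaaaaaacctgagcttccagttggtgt
Ifit3: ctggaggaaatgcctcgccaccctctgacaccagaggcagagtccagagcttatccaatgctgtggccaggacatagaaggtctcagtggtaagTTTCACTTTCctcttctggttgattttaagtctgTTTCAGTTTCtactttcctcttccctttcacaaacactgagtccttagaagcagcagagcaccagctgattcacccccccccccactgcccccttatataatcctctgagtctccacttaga
Isg15: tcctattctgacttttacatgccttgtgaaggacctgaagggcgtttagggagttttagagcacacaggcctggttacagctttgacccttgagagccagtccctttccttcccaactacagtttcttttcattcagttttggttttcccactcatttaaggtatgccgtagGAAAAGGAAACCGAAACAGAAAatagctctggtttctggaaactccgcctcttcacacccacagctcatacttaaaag
Gbp5: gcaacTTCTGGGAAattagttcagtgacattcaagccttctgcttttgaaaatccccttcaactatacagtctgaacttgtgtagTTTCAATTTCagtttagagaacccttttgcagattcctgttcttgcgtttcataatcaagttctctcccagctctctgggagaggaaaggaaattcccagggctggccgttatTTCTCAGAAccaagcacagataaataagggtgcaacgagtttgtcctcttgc
Gbp7: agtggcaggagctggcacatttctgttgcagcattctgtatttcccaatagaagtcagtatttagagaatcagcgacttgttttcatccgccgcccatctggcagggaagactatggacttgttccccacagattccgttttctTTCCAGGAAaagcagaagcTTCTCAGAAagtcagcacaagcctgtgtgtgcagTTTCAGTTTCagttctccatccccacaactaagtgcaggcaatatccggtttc
Igtp: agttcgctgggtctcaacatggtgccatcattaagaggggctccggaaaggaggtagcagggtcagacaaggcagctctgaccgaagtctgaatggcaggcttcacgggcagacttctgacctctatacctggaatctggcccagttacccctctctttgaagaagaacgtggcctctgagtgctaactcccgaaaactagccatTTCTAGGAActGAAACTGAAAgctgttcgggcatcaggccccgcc
Irf1: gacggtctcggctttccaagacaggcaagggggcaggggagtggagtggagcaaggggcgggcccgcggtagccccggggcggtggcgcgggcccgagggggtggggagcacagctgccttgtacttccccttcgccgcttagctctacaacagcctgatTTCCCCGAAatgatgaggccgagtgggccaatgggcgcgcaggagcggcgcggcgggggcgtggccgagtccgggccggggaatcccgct
A match is a run of letters and not a measured binding site, and the missing letters in other members say nothing about the factors.

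The libraries held 11257 WT and 8444 F592A cells after filtering, with a median of 15870 and 17886.5 unique molecular identifiers (UMIs, counted RNA molecules) per cell. Cells were placed in classes by the marker panel with the highest mean level, and 7 classes were used: stromal (6834 WT and 4925 F592A cells), macrophage (2632 and 1750), endothelial (520 and 584), mural (506 and 543), neutrophil (224 and 146), lymphatic endothelial (81 and 78) and T or NK (61 and 74). Levels are CPM, a gene's UMIs scaled to 1000000 UMIs of its class. A gene counts as measured where both libraries together gave it 100 or more UMIs in the class. A difference counts as lower or higher here from 1.5-fold (0.58 on the log2 scale). The median log2 ratio, F592A over WT, of all measured genes lay at -0.07 in stromal and macrophage cells, -0.10 in endothelial and -0.08 in mural cells. Macrophage markers were lower in the F592A library inside other classes: their sum in stromal cells was 199 CPM for WT against 111 for F592A (8 of 9 markers lower, none at 0), 198 and 116 CPM in endothelial cells, and 273 and 97.1 CPM in mural cells. The part of this in the values below was not tested. The libraries shared 764 barcodes, 96 of them kept cells in both. Of these 96, 69 had the same class in both libraries, and 73 had a WT depth 1 to 1.3 times the F592A depth. The cause was not tested. Leaving those cells out turned no direction, and 2 in place of 3 stromal members were then higher.

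The label was checked in the stromal class, in cells with at least 3 UMIs of Ifit1 and Ifit3 together. Members not used to choose those cells were detected in them far more often than in other stromal cells. In the WT library Isg15 was found in 86.1% of the 122 such cells and 6.99% of the other 6712, Oasl2 in 80.3% and 3.75%, Usp18 in 38.5% and 1.16%, and Gbp7 in 72.1% and 11.4%, at a median depth of 21645.0 and 21937.0 UMIs. Irf1 (63.9% and 55.5%), Irf8 (5.74% and 3.87%) and Isg20 (38.5% and 20.8%) stood less apart. Isg15, Oasl2, Usp18 and Gbp7 thus co-occurred with Ifit RNA, and Irf1 and Irf8 were spread over cells with and without Ifit RNA. No class is known to lack these genes, so marker panels of other classes serve as the reference for stray RNA. In stromal cells the endothelial panel stood at 0.366% (WT) and 0.426% (F592A) of its level in endothelial cells, and the macrophage panel at 0.663% and 0.474% of its level in macrophages.

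In stromal cells the Ifit, Isg and Oas genes were lower in the F592A library and the GTPases as a group were not. The class was made up differently in the 2 libraries (1 Leiden cluster of it held 605 WT and 230 F592A cells, another 301 and 94), and the part of that in these values was not tested. Of 37 measured members, 10 were at least 1.5-fold lower and 3 higher, where 4.39% of all 14042 measured genes were lower and 3.72% higher. Ifit1, an RNA-binding inhibitor of viral translation, was at 7.22 CPM in WT (6.80 to 7.65; 1146 UMIs) and 1.43 CPM in F592A (1.22 to 1.65; 178 UMIs), a log2 ratio of -2.34 (-2.57 to -2.11). Isg15, a ubiquitin-like modifier, was at 16.5 CPM in WT (15.9 to 17.2) and 4.38 CPM in F592A (4.02 to 4.77), -1.91 on the log2 scale (-2.05 to -1.78). Ifit3 was at 4.43 CPM (4.11 to 4.77) and 1.41 CPM (1.21 to 1.64), -1.65 on the log2 scale. For each of these genes the intervals of the 2 libraries did not overlap. They treat UMIs as independent, but Ifit1 and Ifit3 UMIs were clumped: 55 WT and 4 F592A stromal cells held at least 10. Differences between cells and between mice are not in these intervals.

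The remaining stromal members that were lower were Ifi44 (-1.27), Ifit3b (-1.20), Oasl2 (-1.04), Rsad2 (-0.89), Irf7 (-0.70), Dhx58 (-0.69) and Usp18 (-0.68). Without the 1% of cells highest in Ifit1, Ifit3 and Isg15, Dhx58 was at -0.55 and Usp18 at -0.35. Oasl2, an Oas-like protein, was at 3.41 CPM in WT (3.13 to 3.71) and 1.66 CPM in F592A (1.44 to 1.90). Rsad2, the radical-SAM antiviral enzyme viperin, was at 1.03 and 0.553 CPM, and Irf7, the transcription factor that amplifies type I interferon production, at 4.27 and 2.62 CPM. Usp18 removes Isg15 from proteins and damps the receptor. Oas1a, Oas2, Oas3 and Oasl1 were under the limit of 100 UMIs, with 25, 27, 18 and 81 UMIs in WT and 8, 7, 3 and 12 in F592A. Not every Ifit or Isg gene reached 1.5-fold: Ifit2 was at 3.51 and 3.68 CPM (0.07, -0.11 to 0.25) and Isg20, an exonuclease, at 11.8 and 9.96 CPM (-0.24). The interval lay below 0 for 6 of the 7 measured Ifit, Isg and Oas genes, all but Ifit2. Ifit3 and Ifit3b are near-identical copies, so the split of UMIs between them is uncertain.

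The stromal GTPases showed another picture. Their summed level was 34.9 CPM in WT (34.0 to 35.8) and 35.4 CPM in F592A (34.4 to 36.5), a log2 ratio of 0.02 (-0.04 to 0.08), against 48.7 and 23.1 CPM for the 11 Ifit, Isg and Oas genes (-1.07, -1.14 to -1.01). Of the 10 GTPases none was lower and 2 were higher, and their median log2 ratio was 0.02, beside -1.20 for the 7 measured Ifit, Isg and Oas genes. With cells thinned to 2000 UMIs these medians were -0.30 and -1.81, over fewer measured genes. Iigp1, an IRG protein that attacks pathogen vacuoles, was at 4.84 and 4.89 CPM, Gbp2 at 5.33 and 5.29 CPM, Gbp7 at 7.64 and 7.76 CPM, and Igtp at 2.12 and 2.19 CPM. Irgm1, a regulator of the other IRG proteins, was at 5.15 and 4.14 CPM (-0.32). Gbp3 was at -0.45 and Irgm2 at 0.47 on the log2 scale. Of the 10 GTPases, 3 had an interval below 0 and 3 an interval above 0. The GTPases past 1.5-fold were Gbp5, at 1.09 CPM in WT (0.933 to 1.26; 173 UMIs) and 2.55 CPM in F592A (2.28 to 2.84; 318 UMIs), 1.23 on the log2 scale (0.95 to 1.50), and Gbp4, at 0.220 and 0.521 CPM (1.24) with exactly 100 UMIs in all. At the endothelial panel's share, endothelial RNA would amount to 0.181 and 0.338 CPM of Gbp4, most of its stromal level, and to 0.0805 and 0.176 CPM of Gbp5, a small part of its own. Igtp and Irgm2 overlap on chromosome 11, so reads from the shared stretch are uncertain.

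**Figure D1:**
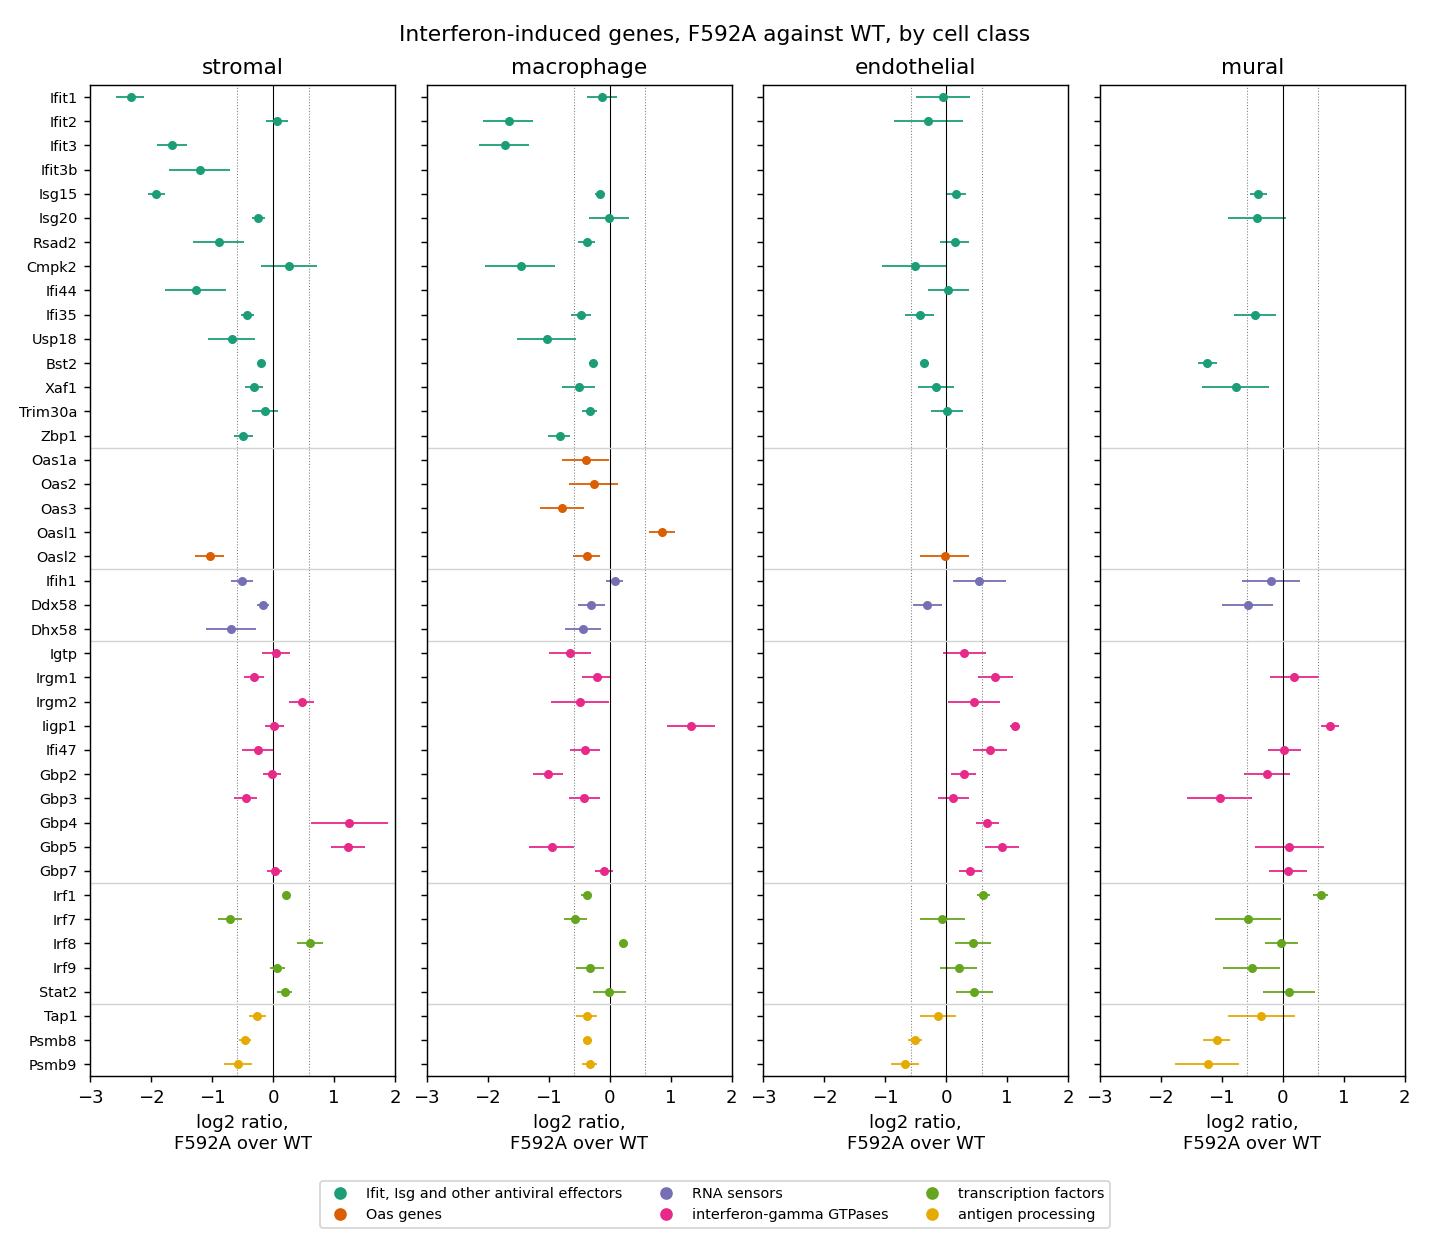
Log2 ratio of each measured member, F592A over WT (x axis), by gene (y axis) in stromal, macrophage, endothelial and mural cells, coloured by role; bars are 95% counting intervals and dotted lines mark 1.5-fold. In stromal cells Ifit1, Isg15 and Ifit3 lie at -2.34, -1.91 and -1.65 while the GTPases other than Gbp4 and Gbp5 lie between -0.45 and 0.47, and in endothelial cells all 10 GTPases lie above 0.

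The median log2 ratio in stromal cells was 0.19 for the transcription factors, above that of the GTPases, and -0.46 for the antigen-processing genes, between the GTPases and the Ifit, Isg and Oas genes. Irf1, the factor that drives many interferon-gamma targets, was at 72.0 CPM in WT (70.6 to 73.3) and 83.5 CPM in F592A (81.9 to 85.1), 0.21 on the log2 scale. Irf8, a myeloid factor, was at 2.20 and 3.34 CPM (0.61), the third member counted as higher; with the stricter gate, which asks a margin of 1.0, it was at 0.31, and with classes from Leiden clusters at 0.23. Stat2 was at 7.13 and 8.16 CPM (0.19) and Irf9 at 8.25 and 8.66 CPM (0.07), so Stat2 and Irf9 were not lower where the Ifit genes were. Psmb8, an immunoproteasome subunit, was at 14.8 and 10.8 CPM (-0.46), Psmb9 at 2.97 and 2.00 CPM (-0.57) and the peptide transporter Tap1 at 6.53 and 5.46 CPM (-0.26), beside the lower macrophage markers given above, whose part was not tested. At the macrophage panel's share, macrophage RNA would amount to 1.35 (WT) and 0.748 (F592A) CPM of stromal Psmb8. The sensors Ifih1 (-0.51) and Ddx58 (-0.17), which detect viral RNA, did not reach 1.5-fold.

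The stromal difference in Ifit RNA was widest among the few cells rich in it. Without the 1% of cells highest in Ifit1, Ifit3 and Isg15 in each library, the median of the Ifit, Isg and Oas genes was -0.88 and 8 members were lower. That cut was equal in both libraries, while WT had the larger share of Ifit-rich cells, so it can leave more of them in WT. It therefore cannot show if the difference reaches cells poor in Ifit RNA. The share of cells with at least 3 UMIs of Ifit1 and Ifit3 was 1.79% in WT (122 of 6834; 1.48% to 2.13%) and 0.528% in F592A (26 of 4925; 0.345% to 0.773%). The cells form a range with no gap: 162 and 48 cells had at least 2 such UMIs, 92 and 11 at least 5, 55 and 4 at least 10, and 27 and 1 at least 20. The ratio of the F592A to the WT share was 0.72 at 1 UMI or more and 0.051 at 20 or more. Thinned to 2000 UMIs per cell, leaving out 178 and 84 shallower cells, Ifit1 was found in 0.962% of WT and 0.269% of F592A stromal cells, against 3.34% and 1.77% unthinned. Irf1, in contrast, was found in 55.7% and 59.2% of stromal cells.

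**Figure D2:**
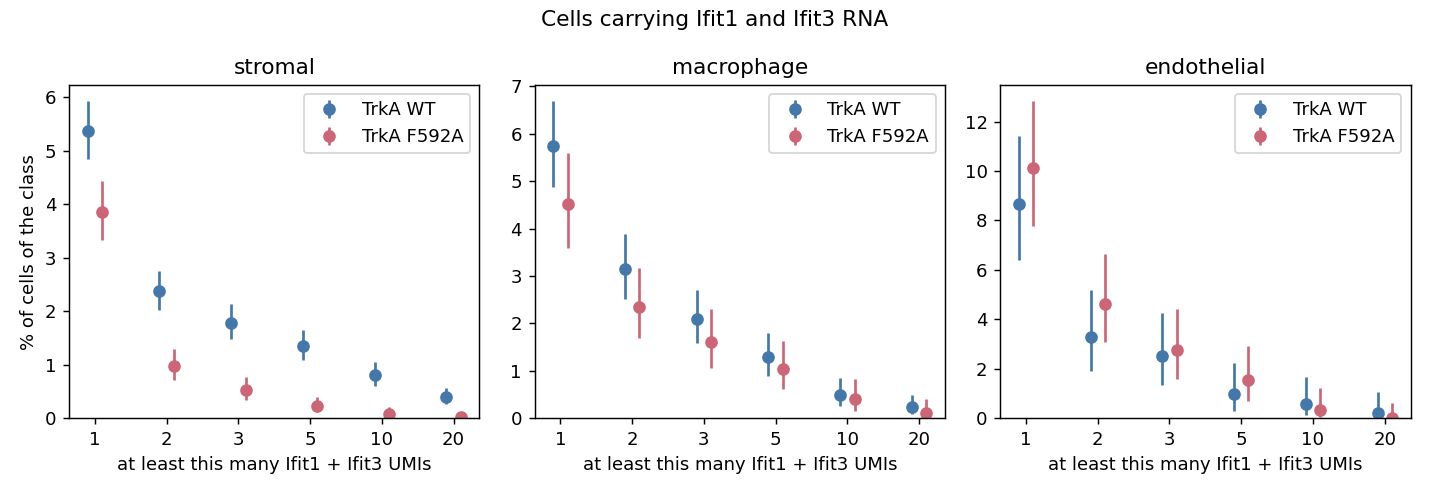
Share of stromal, macrophage and endothelial cells (y axis, % of the class) with at least a given number of Ifit1 and Ifit3 UMIs (x axis), by library, with exact binomial 95% intervals. In stromal cells the share at 3 UMIs is 1.79% in WT and 0.528% in F592A; in macrophages it is 2.09% and 1.60% and the intervals overlap.

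Within the Ifit-carrying stromal cells Isg15 and the summed Oas genes were lower in the F592A library, and the summed GTPases were not. Isg15 was at 516 CPM in WT and 137 CPM in the F592A library (-1.92, -2.23 to -1.61), and the Oas genes summed to 103 and 38.2 CPM (-1.43). Most of these Oas UMIs were of Oasl2 (243 of 309 in WT and 24 of 26 in F592A). Further intervals below 0 were those of Ifih1 (-1.39), Zbp1 (-1.33), Isg20 (-1.28), Ifi35 (-0.81) and Irf7 (-0.68). Those of Irf1 (0.59), Gbp5 (1.14) and Gbp4 (2.72, from 4 WT and 6 F592A UMIs) lay above 0. The intervals of Ifit2 (-0.47, -1.67 to 0.56) and Ifit3b (-0.78, -1.73 to 0.07) spanned 0, as did those of Rsad2 (0.30), Ifi44 (-0.01) and Cmpk2 (-0.22). The GTPases summed to 461 CPM in WT and 500 CPM in F592A (0.12, -0.06 to 0.29), and antigen-processing genes to 123 and 125 CPM (0.02). Single GTPases differed: Irgm1 was at -0.77 (-1.47 to -0.14) and Iigp1 at 0.32 (0.01 to 0.62). Iigp1 gave 412 of the 1381 WT and 117 of the 340 F592A GTPase UMIs. Since fewer F592A cells passed the higher Ifit counts, these cells are not matched in Ifit level. In the other stromal cells the GTPases were at 26.7 and 32.9 CPM (0.30, 0.24 to 0.36), with Iigp1 at 2.28 and 3.97 CPM (0.80) and Gbp5 at 0.956 and 2.47 CPM (1.37). The antiviral genes were mixed there. Isg15 was at 6.90 and 3.66 CPM (-0.92) and Ifi44 at -0.89, while Oasl2 (-0.37) and Isg20 (-0.21) did not reach 1.5-fold. The intervals of Ifit2 (0.17), Ifit3b (0.07), Rsad2 (0.10) and Usp18 (0.02) spanned 0, and Cmpk2 was at 0.91. At the endothelial panel's share, endothelial RNA would amount to 0.83 (WT) and 2.12 (F592A) CPM of stromal Iigp1, beside the 2.28 and 3.97 CPM of the other stromal cells, and its part in that difference was not tested.

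**Figure D3:**
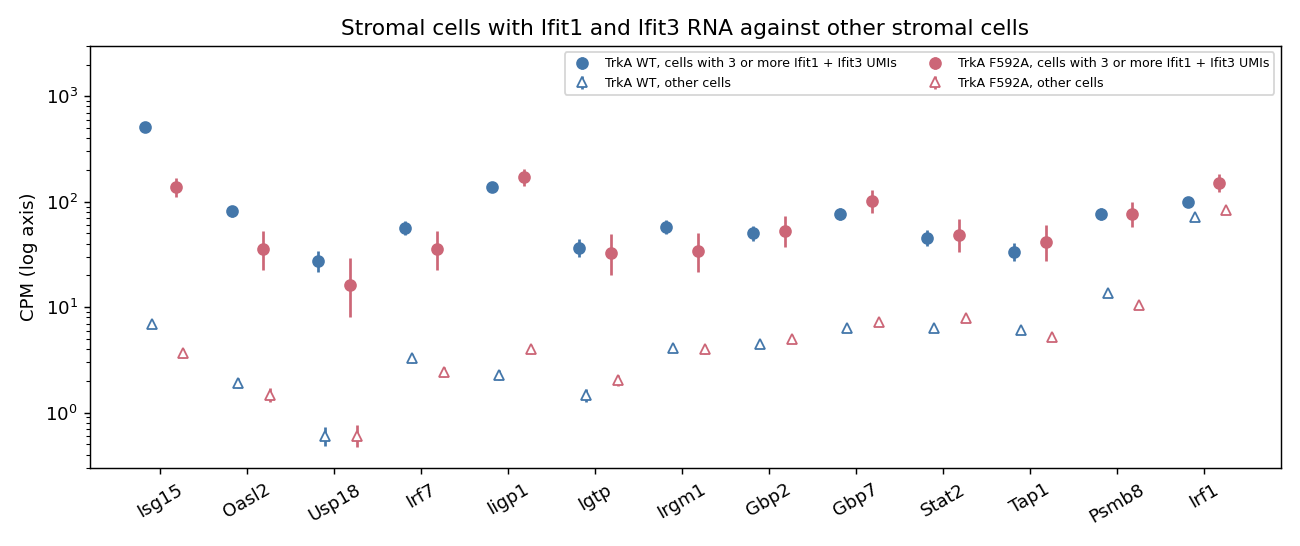
Level (y axis, CPM, log axis) of 13 members in stromal cells with at least 3 Ifit1 and Ifit3 UMIs (filled circles) and in other stromal cells (open triangles), by library, with exact Poisson 95% intervals. Among the Ifit-carrying cells Isg15 is at 516 CPM (WT) and 137 CPM (F592A library), while Iigp1 is at 138 and 172 CPM.

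In macrophages several members of both groups were lower. Of 38 measured members 9 were lower and 2 higher, where 3.63% of all 10244 measured genes were lower and 2.25% higher. Ifit3 was at 8.82 CPM in WT (7.77 to 9.97) and 2.68 CPM in F592A (2.07 to 3.43), -1.72 on the log2 scale, Ifit2 at 8.71 and 2.77 CPM (-1.66) and Cmpk2, a mitochondrial nucleotide kinase next to Rsad2, at 4.01 and 1.47 CPM (-1.45). Usp18 (-1.02), Gbp2 (-1.01), Gbp5 (-0.95), the nucleic acid sensor Zbp1 (-0.82), Oas3 (-0.78) and Igtp (-0.64) followed. Over the alternatives Ifit3 ranged from -1.82 to -0.91, Ifit2 from -2.01 to -0.78 and Cmpk2 from -1.83 to -0.78. Most WT UMIs of Ifit2 and Cmpk2 lay in the 55 WT macrophages with at least 3 Ifit1 and Ifit3 UMIs. Those cells held 190 and 91, and the other WT macrophages 60 and 24. In the other macrophages Ifit2 was at -0.52 (-1.17 to 0.10) and Cmpk2 at 0.13 (-0.77 to 1.03). Igtp stayed past 1.5-fold in 7 of 11 alternatives, down to -0.44. Gbp2 was at -0.49 and Oas3 at -0.48 as means of per-cell CPM, and Zbp1 at -0.49 with cells thinned to 2000 UMIs, each under 1.5-fold. Gbp2 was at 17.1 and 8.51 CPM, the lowest ratio among the GTPases there. Ifit1 (10.7 and 9.81 CPM, -0.13), Isg15 (98.8 and 88.7 CPM, -0.16) and Rsad2 (36.4 and 28.0 CPM, -0.38) did not reach 1.5-fold, unlike in stromal cells; that difference between classes was not tested.

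The median log2 ratio was -0.32 for 10 measured Ifit, Isg and Oas genes and -0.42 for 9 GTPases in macrophages, and their sums were 176 and 153 CPM (-0.20) and 106 and 84.8 CPM (-0.32). With cells thinned to 2000 UMIs the medians were 0.02 and -0.51. The macrophage panel itself was at 29945 and 23362 CPM in this class (6 of 9 markers lower), the stromal panel at 1189 and 931 CPM and the T or NK panel at 58.5 and 33.7 CPM. The part of that in these values was not tested. The members that were higher were Oasl1, a repressor of Irf7 translation, at 10.7 and 19.5 CPM (0.86), and Iigp1, at 2.82 and 7.08 CPM (1.33). Of the 169 Iigp1 UMIs in F592A macrophages, 126 came from a single cell, so that value describes that cell, and with classes from Leiden clusters it was at -0.75. In macrophages with at least 3 Ifit1 and Ifit3 UMIs (55 WT and 28 F592A cells) Oasl1 was at 90.7 and 247 CPM, Isg15 at 1350 and 749 CPM, and the GTPases at 794 and 332 CPM. In the other macrophages the log2 ratio was 0.83 for Oasl1, 0.17 (0.08 to 0.26) for Isg15 and -0.15 (-0.23 to -0.06) for the GTPases. Rsad2 was at -0.98 in the Ifit-carrying macrophages and at 0.50 in the others. Over the whole class Irf8 was at 137 and 160 CPM (0.22), Irf1 at 87.7 and 67.6 CPM (-0.38), Irf7 at 23.2 and 15.7 CPM (-0.56) and Psmb8 at 204 and 158 CPM (-0.37).

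In endothelial cells 5 of the 10 GTPases were higher in the F592A library, and none of the 4 measured Ifit, Isg and Oas genes reached 1.5-fold. Of 31 measured members 6 were higher and 1 lower, where 2.32% of all 8638 measured genes were higher and 8.74% lower. Iigp1 was at 227 CPM in WT (216 to 238; 1578 UMIs) and 496 CPM in F592A (482 to 511; 4624 UMIs), 1.13 on the log2 scale (1.05 to 1.21). It was found in 47.9% and 63.7% of cells, or 21.9% (18.4% to 25.8%) and 36.9% (33.0% to 41.0%) at 2000 UMIs per cell. Gbp5 was at 22.0 and 41.3 CPM (0.91), Irgm1 at 20.6 and 35.8 CPM (0.80), Ifi47 higher by 0.71 on the log2 scale and Gbp4 at 49.6 and 79.2 CPM (0.67). As means of per-cell CPM, Irgm1 (0.51) and Gbp4 (0.49, and 0.40 with cells thinned to 2000 UMIs) were under 1.5-fold. Irgm2 (0.46), Gbp7 (0.39), Igtp (0.30), Gbp2 (0.29) and Gbp3 (0.12) did not reach it. All 10 GTPases lay above the median of all genes, with a median of 0.56.

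The sum of the endothelial GTPases was 495 CPM in WT (479 to 512) and 879 CPM in F592A (860 to 899), 0.83 on the log2 scale. Without Iigp1 it was 268 and 383 CPM (0.51). The summed log2 ratio was 1.02 for the IRG genes and 0.48 for the GBP genes. Irf1 was higher too, at 145 CPM in WT (137 to 155) and 222 CPM in F592A (212 to 232), 0.61 on the log2 scale (0.58 and just under 1.5-fold as a mean of per-cell CPM), and Stat2 was at 20.7 and 28.5 CPM (0.46). The Ifit, Isg and Oas genes summed to 133 CPM (125 to 142) and 140 CPM (132 to 148), with Ifit1 at 11.4 and 10.9 CPM and Isg15 at 87.3 and 98.0 CPM (0.17). Psmb9 was lower (48.2 and 30.2 CPM, -0.68, but -0.58 and under 1.5-fold with TMM or median-of-ratios factors) and Psmb8 at 168 and 118 CPM (-0.51), so antigen-processing genes did not follow the GTPases.

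In mural cells (pericytes and smooth muscle) 5 of 22 measured members were lower and 2 higher, where 8.02% of all 8247 measured genes were lower and 3.97% higher. Iigp1 was at 100.3 CPM in WT (92.2 to 109) and 171 CPM in F592A (161 to 181), 0.77 on the log2 scale, and Irf1 at 134 and 206 CPM (0.62). Irf1 stayed past 1.5-fold in 8 of 12 alternatives, down to 0.50, and Iigp1 in 11 of 12, with 0.54 in cells thinned to 2000 UMIs. Bst2, the virion-tethering protein tetherin, was at 173 and 73.4 CPM (-1.23), Psmb9 at 16.5 and 7.02 CPM (-1.23), Psmb8 at 84.0 and 39.7 CPM (-1.08), Gbp3 at 14.4 and 7.02 CPM (-1.03) and Xaf1 at 12.2 and 7.16 CPM (-0.77). All 9 macrophage markers were lower in these F592A cells as well, and the stricter gate left Bst2 at -0.57 and 1 member lower. The GTPase sum was 236 and 304 CPM (0.37), and without Iigp1 136 and 134 CPM (-0.02). Ifit1 had 31 and 5 UMIs and Ifit3 37 and 12, under the limit of 100.

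**Figure D4:**
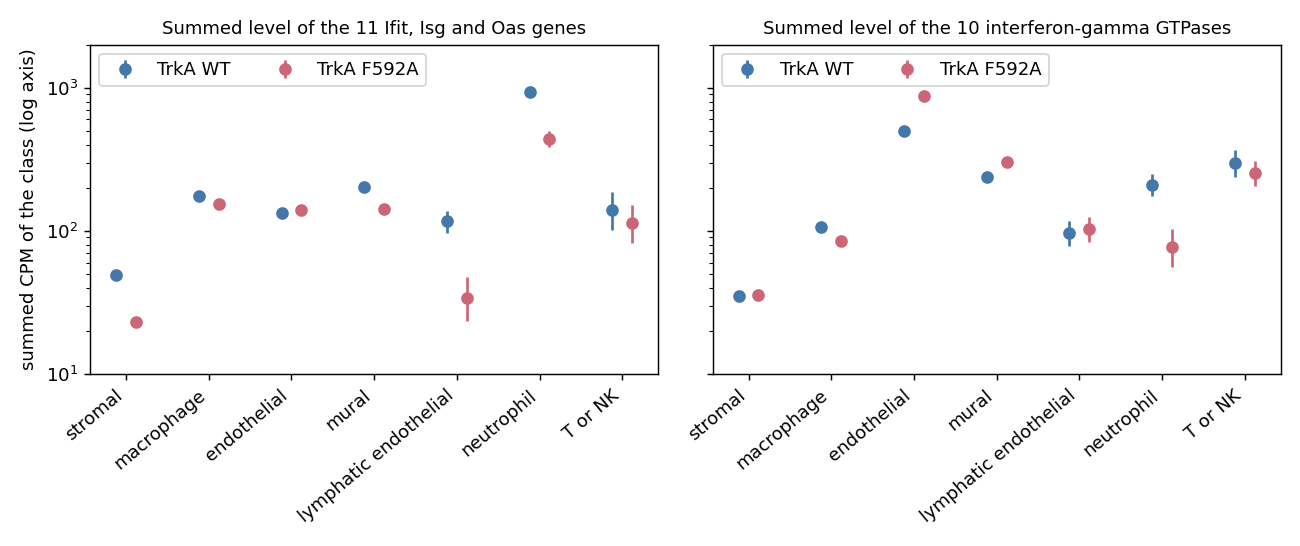
Summed level (y axis, CPM of the class, log axis) of the 11 Ifit, Isg and Oas genes (left) and the 10 GTPases (right) in 7 cell classes, by library, with exact Poisson 95% intervals. In stromal cells the first sum is 48.7 CPM in WT and 23.1 CPM in F592A and the second 34.9 and 35.4 CPM; in endothelial cells they are 133 and 140 CPM and 495 and 879 CPM.

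The small classes add levels with wide errors. In neutrophils 5 of 7 measured members were lower, where 12.3% of all 1408 measured genes were lower and 13.8% higher. Rsad2 was at 403 CPM in WT (237 UMIs) and 87.3 CPM in F592A (50 UMIs), -2.21 on the log2 scale, with 59.9% of the WT UMIs in 3 cells. Isg15 was at 396 and 178 CPM (-1.15), Isg20 at 168 and 76.9 CPM (-1.13), Trim30a, an inhibitor of inflammatory signalling, at 191 and 87.3 CPM (-1.13), and Irf1 at 361 and 213 CPM (-0.76). Their Oasl2 was at 104 and 101 CPM. The content of this class differed between the libraries: its neutrophil panel was at 73884 and 131781 CPM and its stromal panel at 3764 and 2274 CPM. Its macrophage panel summed to 2686 and 4494 CPM, although 8 of the 9 markers were lower in F592A, and 1 Leiden cluster held 1 WT and 15 F592A cells. The part of that in these values was not tested. In lymphatic endothelial cells 1 of 3 measured members was lower, where 15.5% of 3040 genes were lower and 5.59% higher: Isg15, at 93.7 and 29.8 CPM (-1.65), while Rsad2 had 33 and 0 UMIs. In T or NK cells 1 member was measured, Psmb8, at 684 and 395 CPM (-0.79), where 18.8% of 888 genes were lower and 8.9% higher.

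The members also differed in which class carried them. Iigp1 was highest in endothelial cells (227 and 496 CPM), then mural (100.3 and 171 CPM) and lymphatic endothelial cells (21.5 and 21.6 CPM), with no UMI in neutrophils, which allows up to 6.27 and 6.44 CPM. Between stromal (4.84 and 4.89 CPM), macrophage and T or NK cells (3.23 and 9.82 CPM) the order of Iigp1 was not resolved. Gbp4 was at 49.6 and 79.2 CPM in endothelial and 42.0 and 31.9 CPM in T or NK cells and at most 3.49 CPM elsewhere. Among the 7 classes used, Isg15 and Rsad2 were highest in neutrophils and lowest in stromal cells, apart from lymphatic Rsad2, and Irf8 was highest in macrophages. Dendritic cells (31 WT and 20 F592A) were not among these classes.

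**Figure D5:**
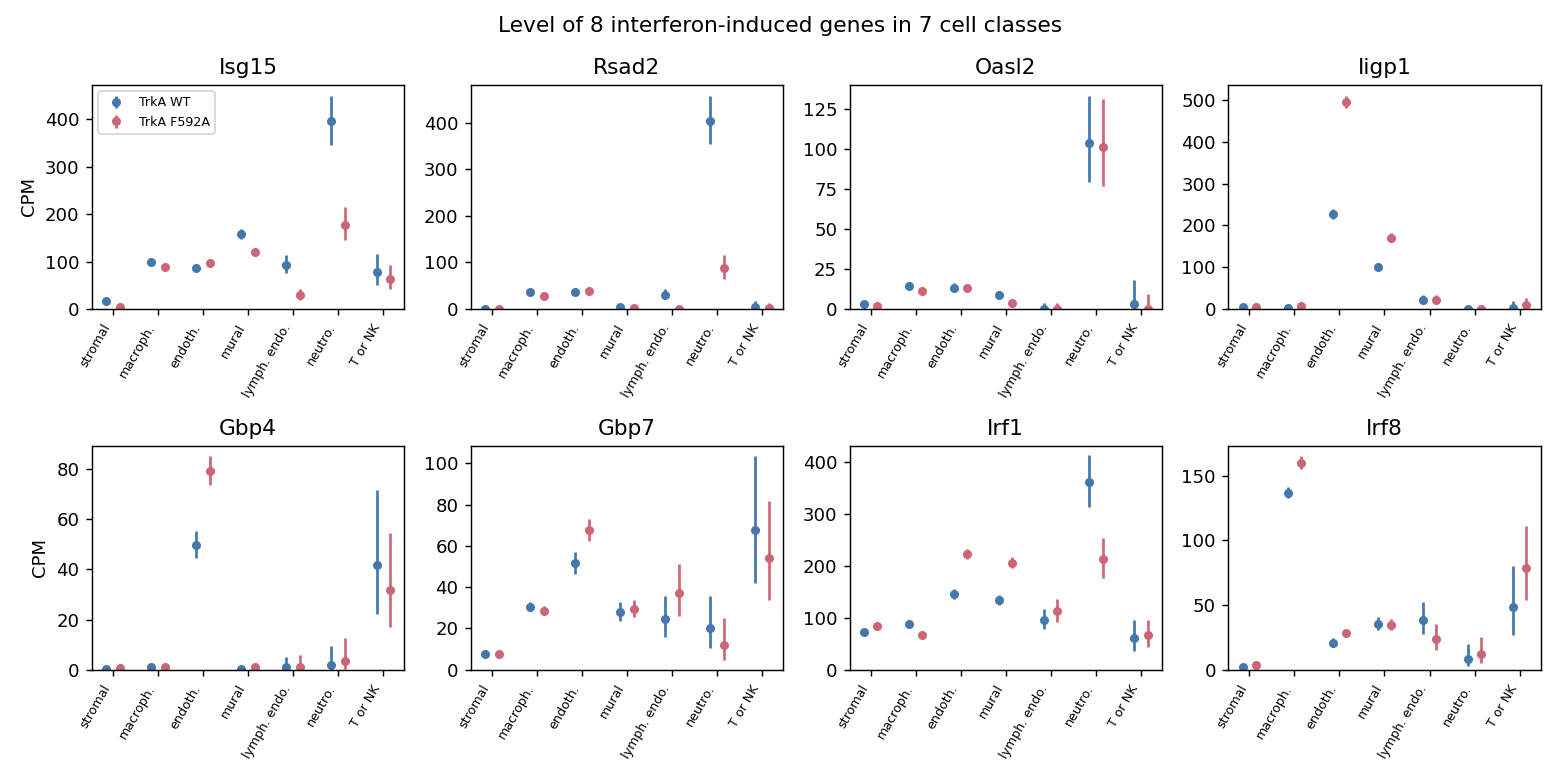
Level (y axis, CPM) of 8 members in 7 cell classes (x axis), by library, with exact Poisson 95% intervals. Iigp1 and Gbp4 peak in endothelial cells (227 and 496 CPM, and 49.6 and 79.2 CPM), and Isg15 and Rsad2 in neutrophils (396 and 178 CPM, and 403 and 87.3 CPM).

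The rest of the pathway was read from a list of 103 further genes. In stromal cells 3 of 77 measured were lower (Cd274, -0.69; Rtp4, -0.66; Slfn2, -0.61) and 5 higher, led by Gbp9 (1.00), H2-Q4 (0.99) and Ifi203 (0.91). In macrophages 7 of 81 were lower, led by Cxcl9, a T-cell attracting chemokine, at 5.44 and 0.922 CPM (-2.56), Ifi205 (-1.01) and Ifi213 (-0.90), and 1 was higher (Ddx60, 0.84). In endothelial cells 0 of 64 were lower and 6 higher, led by the chemokine Cxcl10 at 25.7 and 71.4 CPM (1.47), Gbp6 (1.03) and Slfn5 (0.73). In mural cells 5 of 55 were lower, led by Slfn2 (-1.18), Ifi204 (-1.06) and Psmb10 (-0.76), and none higher. Over all measured genes the shares lower and higher were 4.39% and 3.72% in stromal, 3.63% and 2.25% in macrophage, 8.74% and 2.32% in endothelial and 8.02% and 3.97% in mural cells, so the stromal and mural counts of lower genes lay near the background.

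Receptors moved little, and ligands were near the floor of detection, with more Ifnb1 UMIs in F592A macrophages. Ifnar1, Ifnar2, Ifngr1 and Ifngr2 were within 1.5-fold in the stromal, macrophage, endothelial and mural classes. Ifnb1 had 17 UMIs in 9 WT cells and 58 UMIs in 18 F592A cells, of which 12 and 57 were in macrophages. Ifng had 20 and 21 UMIs, in 18 cells of each library, of which 4 and 10 were in T or NK cells. Ifna1, Ifna2, Ifna4, Ifnl2, Ifnl3 and Ifne had no UMI in either library.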

How the data were processed

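The deposited values are UMI counts per gene and cell barcode, made by the authors with Cell Ranger 6.0.1 per the file headers; Cell Ranger 2.1.1, Seurat and the build mm10 are listed per the submitters' processing notes, and the conflict of versions could not be settled. No barcode had under 500 UMIs. A cell was kept if it had 500 genes, 1000 UMIs and a mitochondrial share of 15% or less. Scrublet doublets (342 WT, 220 F592A) were left out. Each cell was scaled to 10000 and log-transformed, and took the class of the marker panel with the highest mean if it reached 0.5 and led the next panel by 0.25. In stromal, macrophage, endothelial and mural cells 114, 178, 34 and 181 cells lay near that margin. UMIs were summed per class and library with numpy 2.4.6, scipy 1.17.1 and scanpy 1.11.5, and the ratio code was tested on simulated data. Any member could be named, with full values for 17 chosen members and the 3 lowest and 3 highest per class. Of the further pathway genes, those named are the 3 lowest and 3 highest measured per class, the receptors, Ifnb1 and Ifng; 1 further gene that this rule names is not reported here. The threshold of 3 Ifit UMIs was chosen on these data. Members and lists were chosen with earlier results of these data known. Gene overlaps come from GENCODE M21. The stray RNA of another class in stromal cells was taken as its marker panel's level there over that in its own class. Alternatives changed the scaling (edgeR 4.0.16 TMM factors, median-of-ratios), low-count filter, depth, classes, doublets and top cells.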

Additional observations from a re-analysis of the deposited data

Results flagged for a closer look

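Gbp5 pointed in opposite directions between classes: its log2 ratio, F592A over WT, was 1.23 in stromal cells and 0.91 in endothelial cells and -0.95 in macrophages. Each library gives 1 value per class, so the difference between the classes was not tested. In Ifit-carrying stromal cells Gbp5 had 24 WT and 12 F592A UMIs, and in the other stromal cells 149 and 306.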

How the results depend on the processing

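Every call rests on 1 library per genotype, so no replicate could be left out. No paired analysis was possible because each genotype has 1 library and no test was run. Of the members past 1.5-fold, 13 of 13 in stromal, 10 of 11 in macrophage, 7 of 7 in endothelial and 7 of 7 in mural cells kept their sign in every alternative run, and 10, 6, 3 and 4 stayed past 1.5-fold in all. The exception was Iigp1 in macrophages, which went to -0.75 with classes from Leiden clusters. A member was scored only in the alternatives where it was measured, from 6 for stromal Gbp4 to 12 for stromal Ifit1. Cells thinned to 2000 UMIs gave, in stromal cells, a median of -1.81 for the Ifit, Isg and Oas genes and -0.30 for the GTPases, with 3 members lower and 1 higher; in macrophages a median of 0.0172 for the Ifit, Isg and Oas genes, with 2 lower and 1 higher; and in endothelial cells 0 lower and 2 higher. Fewer members reach 100 UMIs after thinning. The stromal count of higher members was 1 with Leiden classes, with the stricter gate and without the 1% of cells highest in Ifit1, Ifit3 and Isg15. The macrophage count of higher members was 1 with per-cell mean CPM, Leiden classes and the stricter gate. The endothelial count of lower members was 0 with TMM factors, median-of-ratios factors and Leiden classes, and 2 with a filter of 20 UMIs, no filter, per-cell mean CPM and the stricter gate. The ratio of the stromal shares of Ifit-carrying cells, 0.30 at 3 UMIs, was 0.17 at 5 UMIs, an alternative added after seeing the data. With under 100 UMIs for the others, 1 of 5 Oas genes was measured in stromal and in endothelial cells and 0 in mural cells.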
